A study of Mus musculus with 3 samples.

Results

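Most protein-coding genes that carry CUT&Tag signal for Flag-tagged Bcl11a carry it at a single end, and the regions described here belong to the genes that carry it at both. Peaks of the 3 libraries on chromosomes 1 to 19, X or Y made a single region where they shared at least 1 bp, and a region was kept when it held a peak of each library. A gene was called occupied at an end when such a region came within 1 kb of that end, and only protein-coding genes longer than 5 kb were considered. By this rule 560 genes were occupied at both ends, and their ends held 1098 of the 22987 regions that all 3 libraries shared. The members were thus chosen by the measured peak positions and by agreement between libraries, so the counts and strengths below describe them and no test was run on them. The libraries came from LSK cells, which lack lineage markers, carry Sca-1 and Kit and include blood stem cells and early progenitors, sorted from the bone marrow of knock-in mice whose Bcl11a protein bears an N-terminal 3xFlag tag. The genotype label of each library nevertheless reads wildtype, and the labels give neither the age nor the number of animals. All 3 libraries belong to this 1 group, so nothing was compared between treatments, and no untagged or antibody-free library was analysed here. Signal that depends on the tag and signal that does not cannot be told apart here, and the SDs below measure the spread between libraries only.

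A gene is transcribed from its start, where the promoter binds transcription factors and RNA polymerase, to its finish, where the transcript is cleaved and polyadenylated. Bcl11a is a zinc finger repressor of blood cells that recruits chromatin-modifying complexes, and it is best known for silencing fetal globin genes through the short sequence TGACCA. Factors of this kind are usually mapped at promoters and enhancers. Signal at the finish of a gene therefore raises the question of what else lies there, and in gene-dense stretches the finish of a gene can lie close to the start of the next.

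The promoters below show what lay at the finish of 5 of the genes, 4 of them among the strongest finishes next to another start and Prpf8 as a member of a gene list. Each is the window from 250 bases before to 50 bases after a transcription start in RefSeq (GRCm38.p6, the assembly behind mm10), written on the strand of the gene that starts there. Capitals mark TGACCA or its reverse complement TGGTCA, and a window with no capitals does not hold these letters. The first 5 windows start a gene at the finish of another, and the last is the own start of Prpf8, set beside the promoter found at its finish. The windows of Akap8, Jpt2, Tmem237 and Inpp5e lie within the regions at those finishes. That of Rilp ends before the region at the finish of Prpf8 (chr11:75510228-75511112) begins, so its TGACCA lies outside that region. Tmem237 has another listed start closer to the finish of Mpp4. The window of that start (chr1:59120359-59120658) does not hold these letters and is not printed.

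Akap8, at the finish of Akap8l, chr17:32321189-32321488, minus strand: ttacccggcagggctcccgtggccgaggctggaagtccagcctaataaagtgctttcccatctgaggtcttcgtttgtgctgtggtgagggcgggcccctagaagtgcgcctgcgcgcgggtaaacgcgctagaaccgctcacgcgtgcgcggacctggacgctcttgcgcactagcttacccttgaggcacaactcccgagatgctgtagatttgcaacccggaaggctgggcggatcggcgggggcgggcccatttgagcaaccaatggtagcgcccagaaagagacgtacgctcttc

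Jpt2, at the finish of Cramp1l, chr17:24960574-24960873, minus strand: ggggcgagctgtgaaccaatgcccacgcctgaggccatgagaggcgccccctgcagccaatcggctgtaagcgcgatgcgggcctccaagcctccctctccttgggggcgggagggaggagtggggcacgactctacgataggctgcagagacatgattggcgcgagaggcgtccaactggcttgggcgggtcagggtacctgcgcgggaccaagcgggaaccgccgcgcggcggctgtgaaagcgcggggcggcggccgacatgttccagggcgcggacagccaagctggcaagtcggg

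Tmem237, at the finish of Mpp4, chr1:59120047-59120346, minus strand: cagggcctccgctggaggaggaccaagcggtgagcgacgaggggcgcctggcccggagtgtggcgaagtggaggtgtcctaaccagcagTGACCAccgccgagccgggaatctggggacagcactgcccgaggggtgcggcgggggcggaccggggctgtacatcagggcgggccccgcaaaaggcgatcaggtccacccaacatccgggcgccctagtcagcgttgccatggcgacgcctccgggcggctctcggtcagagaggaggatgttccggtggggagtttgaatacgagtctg

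Inpp5e, at the finish of Sec16a, chr2:26409078-26409377, minus strand: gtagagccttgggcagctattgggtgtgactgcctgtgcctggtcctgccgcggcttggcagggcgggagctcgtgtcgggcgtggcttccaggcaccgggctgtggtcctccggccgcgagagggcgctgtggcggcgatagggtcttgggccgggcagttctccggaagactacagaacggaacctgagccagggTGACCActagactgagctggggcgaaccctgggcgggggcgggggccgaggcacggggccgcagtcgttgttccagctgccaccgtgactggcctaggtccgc

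Rilp, at the finish of Prpf8, chr11:75509844-75510143, plus strand: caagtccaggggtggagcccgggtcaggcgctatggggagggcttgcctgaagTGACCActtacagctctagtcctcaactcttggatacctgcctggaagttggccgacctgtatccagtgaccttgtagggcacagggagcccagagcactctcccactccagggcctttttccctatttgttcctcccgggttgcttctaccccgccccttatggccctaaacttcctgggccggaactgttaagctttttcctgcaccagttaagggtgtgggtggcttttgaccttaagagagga

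Prpf8, its own start, chr11:75486527-75486826, plus strand: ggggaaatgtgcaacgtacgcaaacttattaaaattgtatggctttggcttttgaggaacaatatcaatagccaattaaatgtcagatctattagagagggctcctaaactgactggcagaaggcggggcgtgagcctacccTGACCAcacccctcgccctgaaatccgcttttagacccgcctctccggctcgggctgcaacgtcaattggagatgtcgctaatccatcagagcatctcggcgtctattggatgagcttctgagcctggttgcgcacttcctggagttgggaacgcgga

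The dinucleotide CG occurred 27 times in the Akap8 window, 30 times in that of Jpt2, 28 times in that of Tmem237, 25 times in that of Inpp5e, 16 times in that of Prpf8 and 6 times in that of Rilp. The median over all 156 windows of genes that start at such a finish was 19. It was 7 over all 32851 promoter windows of the table and 22 over the 11523 windows with a shared region within 1 kb. The printed windows are picked ones, and others held fewer CG, such as Rccd1 at the finish of Unc45a with 5. They are not typical in TGACCA either. Of the 5 printed windows at a finish, those of Tmem237, Inpp5e and Rilp held it, whereas 23 of all 156 such windows (14.7%) did. The windows of Slc35a2, Psma4, Rccd1, Snapc5 and Atp5e, at other strong finishes, did not hold it.

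Occupancy at both ends was uncommon. Of 16853 protein-coding genes over 5 kb, 560 (3.32%) were occupied at both ends and 7996 at 1 end, and 50.8% had at least 1 occupied end. Taken alone, libraries 1, 2 and 3 placed a peak at both ends of 838, 879 and 1049 genes. No gene had its ends joined by a single region. More than 1 region lay at an end of 29 genes, and 53 of the 1098 regions lay at ends of more than 1 of the 560 genes.

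The strand of the gene, taken from the RefSeq promoter table, was known for 452 of the 560 genes and for 13412 of all 16853. It showed that the end shared with most other genes was the start. A region lay within 1 kb of the start in 49.7% of the 13412 genes and within 1 kb of the finish in 5.28%. Where 1 end was occupied, that end was the start in 6219 of 6475 genes (96.0%), and in the other 256 it was the finish. The finish was occupied in 6.78% of the genes with an occupied start and in 3.8% of those without. A listed transcription start of the gene itself lay within 1 kb of the finish in 0 of the 452 genes, and within 1 kb of the outer start in 413.

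The start of another gene lay within 1 kb of the finish in 144 of the 452 genes (31.9%). The background was 3.88% over all 13412 genes with strand and 2.99% over the 6219 genes occupied at the start alone. In 39 more genes (8.63%, against 3.47% of all genes) the finish lay close to an end of a gene of unknown strand. In 47 (10.4%) it lay close to the finish of another gene only, a share near that of all genes (9.53%) and of genes occupied at the start alone (12.4%). The remaining 222 (49.1%) had no end of any other annotated gene within 1 kb. In all, 230 of 452 finishes (50.9%) lay within 1 kb of an end of a neighbour, against 16.9% of all finishes and 18.9% of those of genes occupied at the start alone.

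Read from the annotation instead, the share of occupied finishes differed with what lay beside them. With the start of another gene within 1 kb, 205 of 521 finishes were occupied (39.3%). With only a finish of another gene there the share was 72 of 1278 (5.63%), and with no other gene end it was 373 of 11148 (3.35%). In libraries 1, 2 and 3 taken alone the share was 43.6%, 46.1% and 48.9% beside another start and 5.43%, 5.18% and 6.45% with no other end. The difference between these classes was larger than the spread between libraries, whose ranges did not overlap. A region also lay within 1 kb of 2.87% of gene midpoints that were over 1 kb from every listed start. In single libraries the midpoint share was 4.46%, 4.37% and 5.90%, below that of finishes without another gene end in each library, but the ranges of both overlapped.

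The share declined with distance from the next start, counted over genes of known strand only. It was 42.1% for finishes up to 250 bp from another start, 38.1% from 250 bp to 1 kb, 12.1% from 1 to 3 kb, 4.92% from 3 to 10 kb, 3.59% from 10 to 30 kb and 1.79% beyond 30 kb. Genes with an occupied start showed the same order, from 44.6% down to 2.80%.

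**Figure D1:**
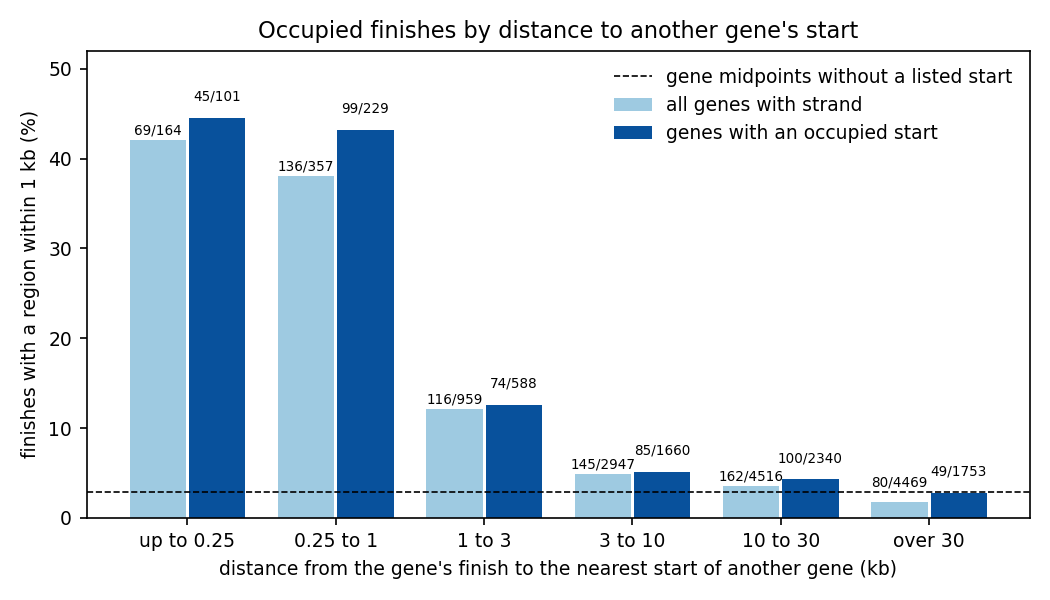
Share of gene finishes with a region of all 3 libraries within 1 kb (y axis, %), by distance from the finish to the nearest start of another gene of known strand (x axis, kb). Bars are given for all 13412 genes with strand and for those with an occupied start. The numbers give occupied finishes over all finishes; the share goes from 42.1% to 1.79% for all genes, and the dashed line marks the 2.87% of gene midpoints.

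Most of these pairs ran in tandem, as such pairs do in the annotation. Among the 144 genes, the gene that started at the finish was on the same strand in 126, on the opposite strand in 11, and starts on both strands lay there in 7. The same-strand share of 87.5% was near that of all 521 finishes with another start (80.2%) and of the 330 among them whose gene had an occupied start (85.5%). The gene was protein-coding in 139 (96.5%), against 81.4% of the 521. Over all genes the occupied share of finishes was 46.2% (196 of 424) where a protein-coding gene started there and 9.28% (9 of 97) where only a noncoding gene did. By strand, the occupied share was 42.1% (176 of 418) beside a same-strand start and 20.3% (16 of 79) beside an opposite-strand start. Beside starts on both strands it was 54.2% (13 of 24). Among genes with an occupied start these shares were 44.7% (126 of 282), 30.6% (11 of 36) and 58.3% (7 of 12). The region at the finish covered the other gene's start in 118 of the 144 cases and came within 1 kb of it in 140. Its summit lay beyond the gene in 131 of 144 (91.0%), with a median of 532 bp past the finish. For the 222 finishes with no other gene end, 136 summits lay beyond the gene (61.3%).

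Cramp1l, which encodes a chromatin protein, had a neighbour's start at each end. At its own start, where Ift140 starts on the other strand 243 bp away, the fold enrichment of the summit over the caller's local background was 12.8, 11.4 and 10.5 in libraries 1, 2 and 3 (11.5 ± 1.15, SD, n = 3). At its finish, 603 bp from the start of Jpt2, it was 11, 10.7 and 14.7 (12.1 ± 2.23, SD, n = 3). The values at both ends overlapped.

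Akap8l and its paralogue Akap8, which encode anchoring proteins of the nucleus, stood in tandem 186 bp apart. The region over the finish of Akap8l and the start of Akap8 (chr17:32320605-32321684) had a fold enrichment of 13.4, 11.9 and 14.5 (13.2 ± 1.32, SD, n = 3). The region at the start of Akap8l had 10.4, 11 and 10.3 (10.6 ± 0.363, SD, n = 3). All 3 values at the finish lay above those at the start.

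Pim2, a survival kinase gene of blood cells on the X chromosome, showed a wider gap. Its start had a fold enrichment of 6.85, 4.50 and 5.57 (5.64 ± 1.18, SD, n = 3), and its finish 14.5, 12.4 and 14.7 (13.9 ± 1.27, SD, n = 3). The finish lay 489 bp before the start of Slc35a2, the gene of a nucleotide sugar transporter. Mpp4 was similar, with 6.82 ± 0.690 at its start and 14.4 ± 0.405 at its finish (SD, n = 3), 513 bp from the start of the cilium gene Tmem237. Summit pileups, in fragments, were 14, 16 and 26 at the start of Mpp4 and 36, 48 and 61 at its finish. In these 2 genes each library placed the stronger region at the neighbour's promoter.

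Sec16a, a gene of endoplasmic reticulum exit sites, had 9.59 ± 0.949 at its start and 12.1 ± 2.58 at its finish, 187 bp from Inpp5e, a phosphoinositide phosphatase gene. The ribosomal protein gene Rpl4 had 7.65 ± 1.09 at its start and 11.6 ± 1.28 at its finish, 735 bp from Snapc5, which encodes a subunit of the snRNA activating complex. Hykk, the hydroxylysine kinase gene, had 5.48 ± 2.37 at its start and 12.4 ± 1.05 at its finish, 857 bp from the proteasome gene Psma4 (SD, n = 3 for each). An end of the protein-coding gene AY074887, of unknown strand, lay nearer to the finish of Hykk, 320 bp away. Unc45a, Prelid3b and Cfap206 also had the stronger mean at a finish next to another start, with Rccd1, Atp5e and Slc35a1 as the neighbours. These genes were named for the strength of that end, so the order of their ends is part of the choice.

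**Figure D2:**
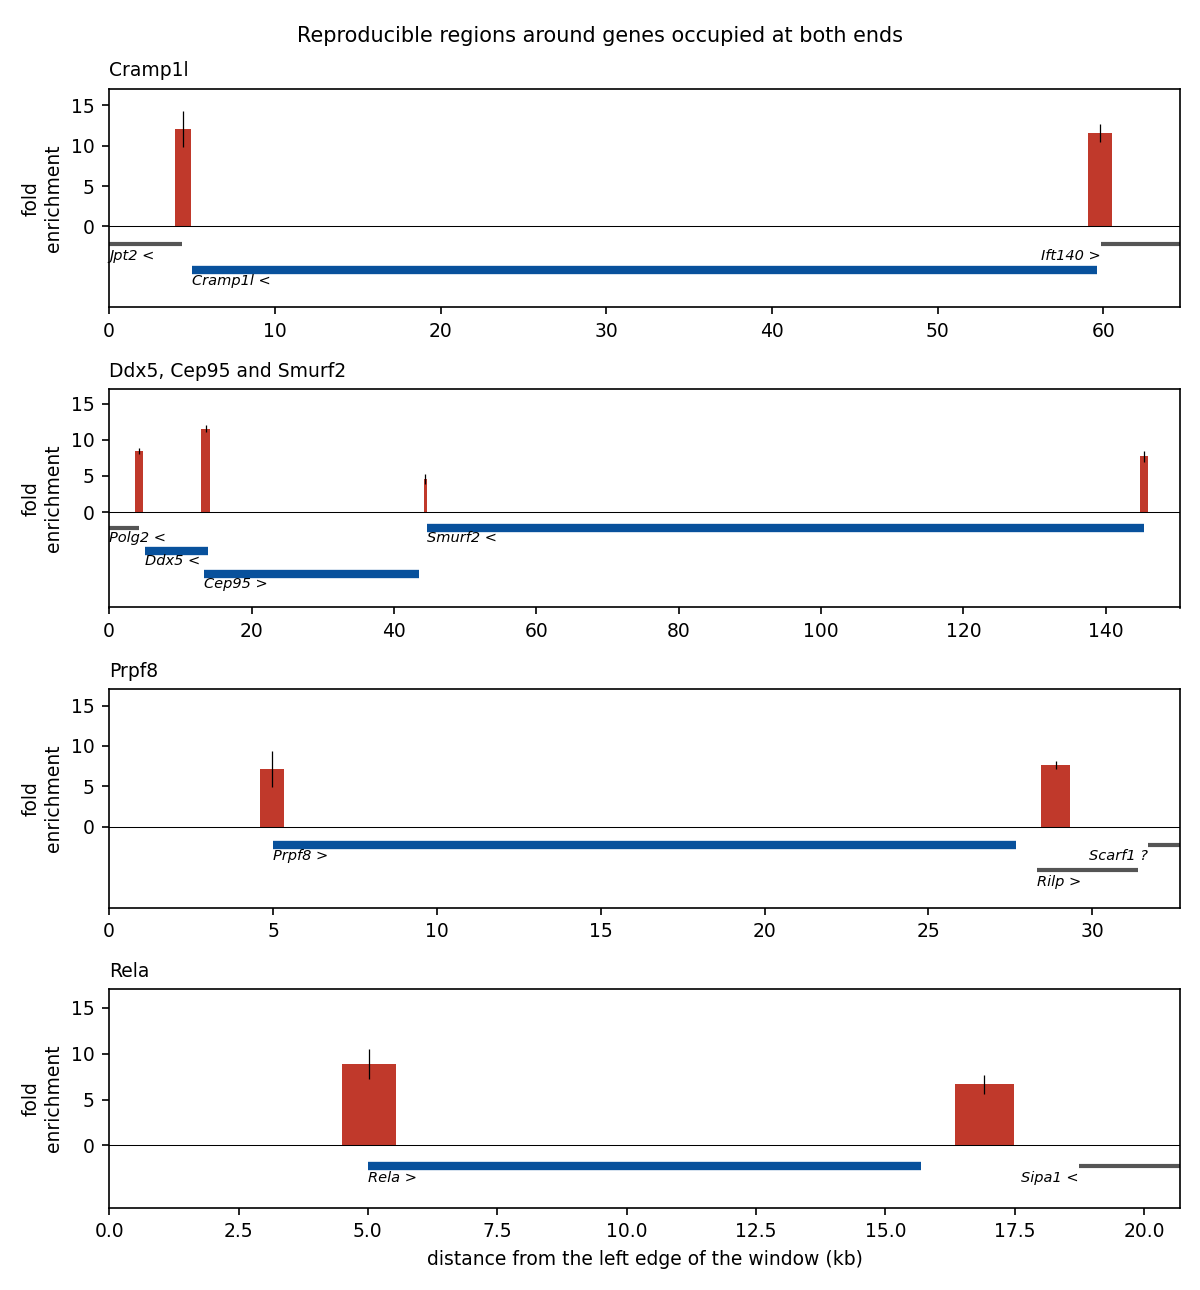
Regions of all 3 libraries around Cramp1l, around the run of Ddx5, Cep95 and Smurf2, around Prpf8 and around Rela. The x axis gives the distance in kb from the left edge of each window, bars the mean fold enrichment with its SD over 3 libraries, and lines the genes with their direction (blue, occupied at both ends; a question mark, strand unknown). Regions sit at gene ends, and at Cramp1l, Ddx5 and Prpf8 the finish lies beside the start of Jpt2, Polg2 or Rilp.

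For the 222 finishes with no other gene end within 1 kb, a neighbour could lie just farther away. The nearest start of another gene of known strand lay between 1 and 3 kb off in 54 of them (24.3%), between 3 and 10 kb in 57 (25.7%) and farther in 111 (50%). Over all 13412 genes with strand it lay between 1 and 3 kb off in 959 and between 3 and 10 kb in 2947. It lay between 10 and 30 kb off in 4516 and beyond 30 kb in 4469. A distance over 10 kb is thus not particular to these finishes. Genes of unknown strand did not enter these distances, so an end of such a gene could lie nearer. The region itself reached to within 1 kb of another gene's end or listed start in 56 cases and did not in 166 (74.8%). Counted from the region rather than from the gene's finish, 43.4% of the 452 finish regions lay within 1 kb of the start of another gene. This count reaches farther by construction, and the matching share over all genes is not given.

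Strong finishes and list members were both found among these. Furin, which encodes a proprotein convertase, had 7.28 ± 1.48 near its start and 13.9 ± 0.511 near its finish (SD, n = 3). The former region lay inside the gene, 653 bp from its start, with its summit 1151 bp into the gene. The latter region (chr7:80386387-80388226) covered the start of the tyrosine kinase gene Fes, 1240 bp from the finish of Furin. Pileups there were 160, 225 and 305 fragments, against 56, 62 and 77 near the start. Chd4, the ATPase gene of the NuRD complex, had 6.89, 4.79 and 4.02 at its start (5.23 ± 1.48) and 6.34, 6.92 and 7.42 at its finish (6.89 ± 0.543, SD, n = 3), 1292 bp from the start of Nop2. The region at the finish of Chd4 covered the start of Nop2, and the values of the ends of Chd4 overlapped. Bax, which encodes a pore-forming protein of apoptosis, had 6.13 ± 1.48 at its start and 8.77 ± 1.19 at its finish (SD, n = 3), 1809 bp from the start of the ferritin gene Ftl1. Its finish had 149, 172 and 221 fragments and its start 21, 31 and 33. Cks2, a cell cycle gene, had 15.7 ± 2.74 at its start and 9.93 ± 1.76 at its finish (SD, n = 3), 1020 bp from Secisbp2. The region at the finish of Cks2 covered the start of Secisbp2.

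Other occupied finishes lay far from the start of any other gene of known strand. Rela, the p65 subunit gene of NF-kappaB, had 7.28, 8.83 and 10.5 at its start (8.88 ± 1.62) and 6.80, 5.54 and 7.60 beyond its finish (6.65 ± 1.04, SD, n = 3). The latter region (chr19:5648782-5649924) had its summit 890 bp past the gene, and the nearest start of another gene, Sipa1, was 15588 bp away. Elk3, an ETS factor gene, had 5.83 ± 1.33 at its start and 12.0 ± 1.74 at its finish (SD, n = 3), with the nearest other start 37558 bp away. Itpr2, the longest of the 560 genes at 393960 bp, encodes a calcium channel of the endoplasmic reticulum. It had 9.71 ± 1.95 at its start and 5.57 ± 1.05 just past its finish (SD, n = 3), where pileups were 8, 14 and 17 fragments. The finish value of Itpr2 thus rested on few fragments in each library.

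The highest values at a finish without another gene end stood apart from the rest. The region near the finish of Lars2, the mitochondrial leucyl-tRNA synthetase gene, had 38.7, 40.6 and 36.4 with pileups of 469, 901 and 1073 fragments, where its start had 7.20, 8.31 and 6.71. The predicted gene Gm32584 had 25.1 ± 0.656 at its finish and 18.6 ± 1.77 at its start (SD, n = 3), and its promoter window held 0 CG and 30% G or C. The predicted gene Gm21814 had 21.8 ± 4.49 at its finish and 3.94 ± 0.592 at its start (SD, n = 3), where pileups were only 7, 10 and 9 fragments. Whether reads map uniquely to these places was not tested. Gm32584 was also first among all 560 genes by the strength of its weaker end, and it was followed by Slc35e2, Dgat2, Rnps1 and Cramp1l, with weaker ends of 13.0 ± 0.739, 12.2 ± 1.36, 12.0 ± 0.717 and 11.5 ± 1.15 (SD, n = 3). The stronger ends of Slc35e2 and Dgat2 had up to 223 and 350 fragments in a library.

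Without regard to strand, the end of each gene with the lower mean log2 fold enrichment was taken as the weaker. Another gene ended or started within 1 kb of the weaker end in 249 of the 560 genes (44.5%), and of the stronger end in 249 as well. The background was 21.4% over all ends of genes over 5 kb. For genes occupied at 1 end the share was 36.0% at the occupied and 18.9% at the unoccupied end. Protein-coding neighbours alone gave 37.5% of weaker ends, against 15% of all ends. Neighbours lay at both ends of 126 genes, at 1 end of 246 and at neither end of 188. The weaker end was the finish in 298 of 452 genes with strand and the start in 154. A weaker end is therefore not the same as a finish, and the share with a neighbour was 50.9% at finishes.

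The start carried more signal than the finish in the middle of the distribution. The median fold enrichment over the 452 genes was 7.19, 7.45 and 6.57 at starts in libraries 1, 2 and 3 (7.07 ± 0.450, mean ± SD, n = 3) and 5.90, 5.96 and 5.67 at finishes (5.84 ± 0.151), ranges that did not overlap. The median difference of log2 fold enrichment within a gene, start minus finish, was 0.25, 0.28 and 0.24. The start was higher in all 3 libraries in 215 genes (47.6%) and the finish in 104 (23.0%). Where another gene started at the finish, the difference was 0.14, 0.11 and 0.15, with 59 and 47 genes. Where no other gene end lay there, it was 0.29, 0.39 and 0.26, with 112 and 46 genes, so the libraries' ranges for these classes did not overlap. Starts of genes occupied at the start alone had a median of 7.66 ± 0.221 (mean ± SD, n = 3), and finishes beside another start 6.63 ± 0.255. The strength of one end told little of the other, with a Spearman's rho of 0.05 across the 452 genes, which share libraries and in some cases regions.

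**Figure D3:**
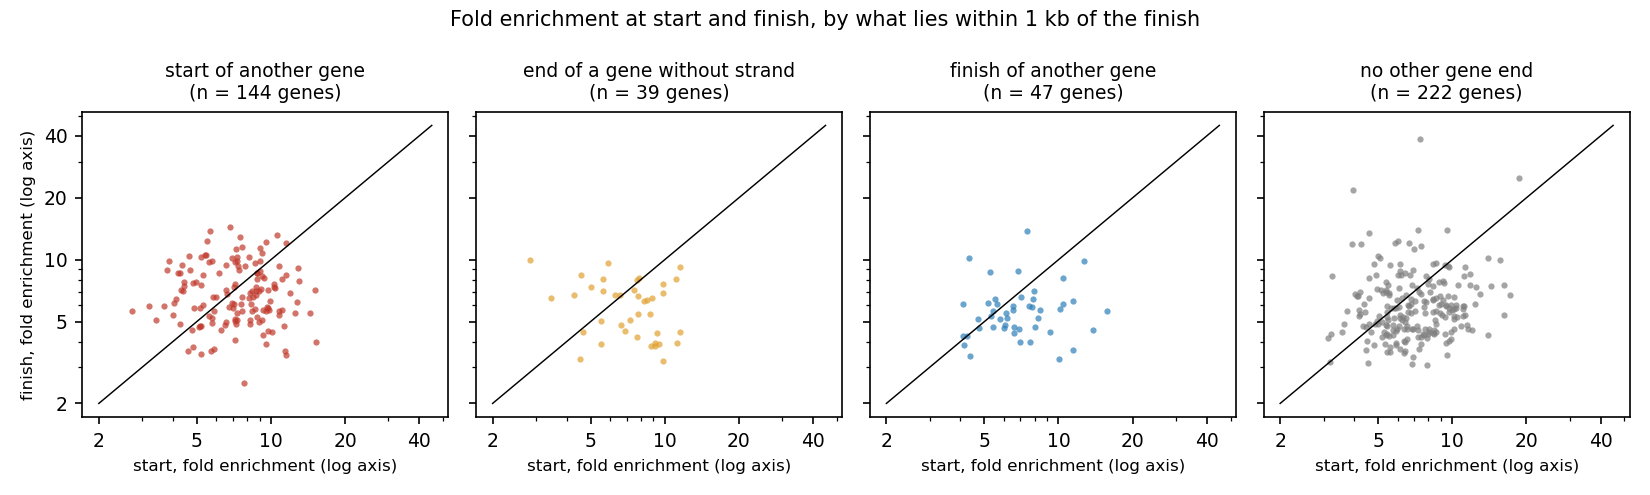
Mean fold enrichment over 3 libraries at the start (x axis, log) and at the finish (y axis, log) of each of the 452 genes with strand, in panels by what lies within 1 kb of the finish. Points below the diagonal have the stronger start; in the last panel the points at 38.6, 25.1 and 21.8 on the y axis are Lars2, Gm32584 and Gm21814.

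Regions at finishes were somewhat narrower, with a median width of 791 bp against 898 bp at starts. Their summits had a median pileup of 22, 28 and 35 fragments in libraries 1, 2 and 3, against 27, 37 and 43 at starts. The caller's genome-wide background was 1.07, 1.41 and 1.95 fragments a base, as calculated from the peak values, in the same order. Library 1 had both the lowest background and the lowest median pileups, and a link between them was not tested.

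Genes occupied at both ends were short. Their median length was 17482 bp, against 27055 bp for genes occupied at 1 end and 25809 bp for all genes over 5 kb. The share occupied at both ends was 4.70% from 5 to 10 kb, 4.49% from 10 to 20 kb, 3.18% from 20 to 50 kb, 2.34% from 50 to 100 kb and 1.11% above 100 kb. The share with any occupied end did not follow this order, at 46.3%, 52.7%, 54.2%, 54.1% and 42.5%. Another start lay at the finish of 5.87% of genes from 5 to 10 kb and of 1.02% above 100 kb. Finishes without another gene end were occupied in 4.02% of the shortest class and 1.48% of the longest. The 5 longest genes with both ends occupied were Itpr2, Babam2, Rasal2, Prune2 and Dym. Babam2, a gene of the BRCA1-A repair complex, had 9.74 ± 0.370 at its start and 4.03 ± 0.793 at its finish, and Prune2 had 7.36 ± 0.734 and 6.95 ± 0.796 (SD, n = 3). The finish region of Babam2 had pileups of only 10, 13 and 12 fragments. Rasal2, the gene of a Ras GTPase-activating protein, had 7.50 ± 1.07 at its start and 11.6 ± 2.26 at its finish (SD, n = 3).

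**Figure D4:**
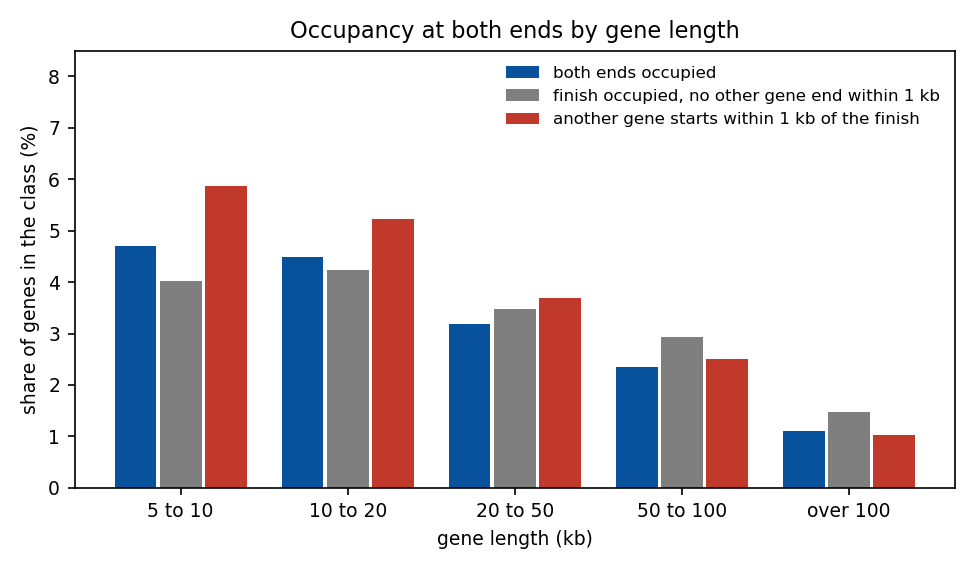
Share of genes (y axis, %) in 5 classes of gene length (x axis, kb) with both ends occupied, with an occupied finish among finishes that have no other gene end within 1 kb, and with another gene starting within 1 kb of the finish. All 3 shares are lowest for genes above 100 kb, at 1.11%, 1.48% and 1.02%.

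By chromosome, the share of genes occupied at both ends was highest on chromosome 19 (37 of 527, 7.02%) and chromosome 11 (78 of 1230, 6.34%). It was 1.17% on X (8 of 685), 0.685% on chromosome 18 (3 of 438) and 0 of 72 on Y.

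Neighbouring genes could share regions and so form runs. Adjacent protein-coding genes that were all occupied at both ends made 48 runs, 40 of 2 genes and 8 of 3, and held 104 of the 560 genes. In the run of 3 with the longest span, on chromosome 11, the RNA helicase gene Ddx5 and the centrosome gene Cep95 start 545 bp apart on opposite strands and share a region of 11.6 ± 0.503 (SD, n = 3). The finishes of Cep95 and of Smurf2, a ubiquitin ligase gene, face each other across a region of 4.35, 5.40 and 4.07, with pileups of only 8, 12 and 11 fragments. Ddx5 finishes 818 bp from the start of Polg2, with 8.39 ± 0.412, and Smurf2 starts at a region of 7.71 ± 0.767 (SD, n = 3). On chromosome 10, Gatd3a, Pwp2 and Trappc10 follow each other on the minus strand. The start region of Gatd3a, 8.88 ± 1.56, lies at the finish of Pwp2, and the start region of Pwp2, 6.92 ± 0.868, at the finish of Trappc10 (SD, n = 3). On chromosome 19, Naa40, Rcor2 and Mark2 alternate in strand. Rcor2, a corepressor gene, and the kinase gene Mark2 finish 171 bp apart, with a region of 5.12 ± 0.377 (SD, n = 3) at both finishes. These runs showed tandem, facing and divergent pairs alike.

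Few genes of the lists examined were occupied at both ends. Among corepressor and remodeller subunits these were Mta2, Mta3 and Chd4, all of the NuRD complex, 3 of 31 genes over 5 kb (9.68%, background 3.32%). Mta2 had 6.10 ± 0.812 at its start and 5.88 ± 0.794 at its finish (SD, n = 3), 1532 bp from the start of Tut1. The region at the finish of Mta2 covered the start of Tut1. The weaker and stronger ends of Mta3, whose strand was not known here, had 5.97 ± 0.823 and 7.03 ± 0.360 (SD, n = 3). Splicing factors also had 3 of 31, the U2 component gene Sf3b2, the splice acceptor recognition gene U2af2 and the core spliceosome gene Prpf8. Sf3b2 had 9.24 ± 1.4 at its start and 10.8 ± 1.64 at its finish (SD, n = 3), 802 bp from Pacs1. Prpf8 had 9.66, 6.15 and 5.59 at its start and 7.39, 8.16 and 7.40 at its finish, 647 bp from Rilp, whose promoter is printed above, and the values overlapped. The region at the finish of Prpf8 did not cover the start of Rilp.

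Of the interferon and inflammation list, Ifnar2, an interferon receptor gene, and Rela were members, 2 of 25. Ifnar2 had 8.44 ± 1.80 at its start and 6.37 ± 0.739 at its finish (SD, n = 3), where an end of Il10rb, another cytokine receptor gene, lay 568 bp away. Among quiescence and cell cycle genes E2f1 was the only member (1 of 28). Its start had 8.09, 8.54 and 5.12, and its finish, 6 bp from the start of Necab3, had 4.59, 5.74 and 4.2, so that the finish was lower in each library. Bax was the only one of 27 genes of DNA damage and apoptosis. The lists of blood stem cell transcription factors (0 of 28), lymphoid (0 of 23), myeloid (0 of 10), and erythroid and megakaryocyte genes (0 of 15) had none, nor had stem cell surface genes (0 of 14) or proteasome genes (0 of 30). With a background of 3.32%, counts this small set no list apart. In the same order, 18, 5, 7, 7, 7 and 26 genes of these lists were occupied at 1 end, where 47.4% of all genes over 5 kb were.

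Of 16 stroma and endothelial genes, Kdr and Sox17 were occupied at both ends. Kdr, the gene of a vascular growth factor receptor, had 8.76, 4.72 and 5.94 at its start and 6.77, 7.73 and 5.77 inside its finish, with pileups of 12 to 20 fragments. Sox17 had 3.53 ± 0.480 and 6.15 ± 0.524 at its ends (SD, n = 3). No hepatocyte or neuronal gene of the lists (0 of 13 and 0 of 14) was occupied at both ends. Among cell type markers, an end was occupied in 9 of 11 for LSK cells, 1 of 6 lymphoid, 1 of 5 myeloid, 1 of 4 erythroid, 2 of 5 stroma and endothelium, and none of 3 hepatocyte or 3 neuronal markers, against 50.8% of all genes over 5 kb. The markers were counted whatever their length, so the background covers a different set. Ly6a, which encodes Sca-1, was among the 2 LSK markers without an occupied end. Bcl11a had 2 regions at its lower-coordinate end and 0 at the other, and was not a member.

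**Figure D5:**
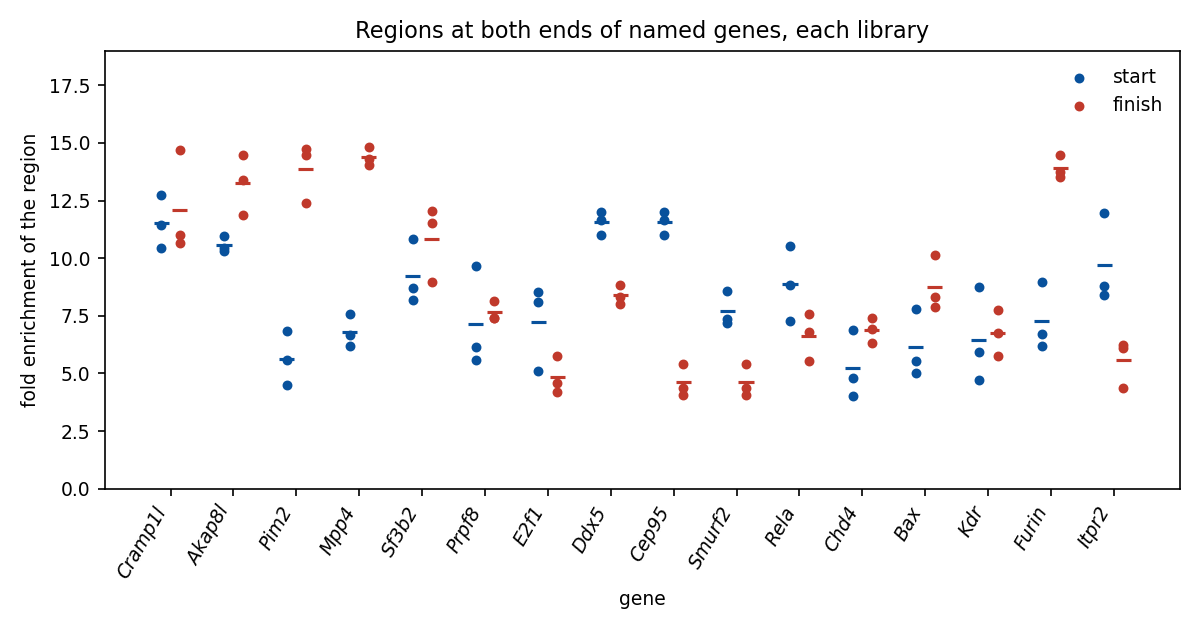
Fold enrichment (y axis) of the region at the start (blue) and at the finish (red) of 16 named genes (x axis). Each point is a library, lines are means of 3 libraries; at Akap8l, Pim2, Mpp4, Bax and Furin all 3 finish points lie above all 3 start points, and at Ddx5, Cep95, Smurf2 and Itpr2 all 3 lie below.

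The letters of the promoters at these ends were compared with all promoters of the table. TGACCA, on either strand, was present in 23 of 156 windows of genes that start at a finish (14.7%) and in 69 of 483 own starts (14.3%). The share was 13.6% of all 32851 windows and 11.5% of the 11523 with a region within 1 kb. GGAAG, which holds the core of ETS sites, was present in 87.2% of the windows at finishes, 76.0% of own starts, 75.4% of windows with a region and 71.4% of all windows. CCAAT was present in 32.1%, 42.7%, 37.5% and 37.4%, in the same order. GATAA was present in 10.9%, 15.5% and 14.2% of the first 3 sets and in 25.4% of all windows. A gene with several listed starts adds a window for each of them. Such windows can overlap, as those of Inpp5e do, so the same letters can be counted more than once. All 4 strings were searched on both strands, and some can share letters, as the end of TGACCA can with the beginning of CCAAT. Their presence does not show binding.

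The thresholds of the rule were crossed gradually. Just above 5 kb stood Tm7sf2 (5030 bp), with 3.41 ± 0.146 and 4.36 ± 0.888 at its ends, and Dazap2 (5100 bp), with 10.4 ± 2.09 and 6.11 ± 1.14. Just below stood Gm46294 (4984 bp), with 2.48 ± 0.182 and 6.08 ± 0.616, and Hmg20b (4898 bp), with 3.05 ± 0.324 and 5.0 ± 0.353 (SD, n = 3). Of 5034 protein-coding genes of 5 kb or less, 305 had a region within 1 kb of both ends. In the shortest of them a single region can lie within 1 kb of both ends, so this share does not compare with that above 5 kb. Over 2 kb, 655 genes were occupied at both ends. Zfp113, whose farther region lay 995 bp from its end, had 4.54 ± 1.14 and 12 ± 1.48, and Aen, at 1001 bp, fell outside with 9.72 ± 1.56 and 4.36 ± 0.535 (SD, n = 3).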

How the data were processed

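The authors deposited 1 peak list for each of the 3 libraries. The tools named, per the submitters' processing notes, are Bowtie2, SAMtools and MACS2, without versions or settings, and the build is mm10. The deposited files give for each peak a fold enrichment, which is a ratio of summit pileup to local background, −log10 p and −log10 q as p-value and q-value, and a deposited score, which was not used. The lowest −log10 q was 1.30 to 1.31, the q threshold of 0.05. Positions are those of mm10.

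Peaks on chromosomes 1 to 19, X and Y numbered 38731, 36459 and 43462. They were joined at 1 bp of overlap, and a region's value in a library is that of its strongest peak there. Summit pileups were solved from fold enrichment and −log10 p taken as a Poisson tail, and 100% came out whole within 0.05 of a fragment. Since the depth of the libraries is not in the files, the implied background (1.07, 1.41 and 1.95 fragments per base) stands in for it. The treatment of PCR duplicates is not given here, so pileups count fragments and not molecules. Gene ends came from a RefSeq table of GRCm38.p6 without strand, and strand and start sites from a RefSeq promoter table of the same assembly, which matched 452 of the 560 genes.

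Members, gene lists, the rule for named genes and alternatives were chosen with earlier results of these data known. The split of ends into starts and finishes, and the genes named for a strong finish, were added after the tables were seen. The rule named the 10 strongest weaker ends, the 10 strongest without a neighbour, the 5 longest genes, list members, the 3 longest runs and genes at the thresholds, of which a part is described. The values are descriptions: there is 1 group, nothing says that the libraries came from separate animals, and genes are not replicates, so no test was run, and SDs measure the spread between libraries. Python 3.11.15, numpy, pandas and scipy were used, and the joining and pileup steps were checked on simulated data.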

Additional observations from a re-analysis of the deposited data

How the results depend on the processing

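The count of genes occupied at both ends moved most with the thresholds. It was 560, and 349 with a −log10 q of at least 5, 81 with the 10000 strongest peaks of each library, 193 with 250 bp and 1520 with 3 kb from region to gene end, 289 when peaks had to overlap by 50% of each, 848 with at least 2 libraries and 248 for genes over 20 kb. With 1 library left out it was 592 to 681.

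The share of weaker ends with an end of another gene within 1 kb was 44.5%. Under stricter peaks it was 47.9% (−log10 q of at least 5), 49.4% (10000 strongest) and 43.3% (50% reciprocal overlap). It was 52.8% at 250 bp and 35.1% at 3 kb to the gene end, 38.9% with at least 2 libraries, 40.1% for genes over 10 kb and 35.9% over 20 kb. The definition of the neighbour moved it from 19.6% (250 bp) to 64.6% (3 kb), with 53.6% when measured from the region and 37.5% either without predicted genes or with protein-coding genes alone. It was 50.9% with the finish as the end counted, 47.8% by the summit, 43.2% with the weaker end chosen by pileup, and 41.9% to 43.1% with 1 library left out. A wider neighbour window also raises the share over all ends, which is not given for the 250 bp and 3 kb windows.

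The share of finishes with the start of another gene within 1 kb, 31.9%, was 37.6% (−log10 q of at least 5), 39.1% (10000 strongest), 34.7% (50% reciprocal overlap), 41.4% (250 bp), 15.8% (3 kb), 26.0% (at least 2 libraries), 27.7% (over 10 kb), 23.2% (over 20 kb) and 36.0% (summit). A neighbour window of 250 bp gave 9.96%, of 3 kb 48.2%, and distance from the region 43.4%. It was 28.6% to 31.5% with 1 library left out. The matching shares over all finishes for the other neighbour windows and for distance from the region are not given.

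The median log2 difference between stronger and weaker end was 0.49, with 0.52 at 250 bp, 0.85 by pileup over background and 0.51 to 0.54 with 1 library left out. Start minus finish, from means over libraries, was 0.27, with 0.23 (−log10 q of at least 5), 0.15 (10000 strongest), 0.33 (250 bp), 0.37 (pileup over background) and 0.26 to 0.30 with 1 library left out. Start minus finish kept its direction under these settings, while the sign of stronger minus weaker is set by its definition. The results on starts and finishes, and the weaker-end settings of reciprocal overlap and summit, were added after seeing the data. The causes of these shifts were not tested beyond what each setting changes by construction. No paired analysis was possible because all 3 libraries belong to 1 group. Regions of few fragments, such as the 8 to 12 between Cep95 and Smurf2, are the least certain, and 108 of the 560 genes had no strand.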
